A study of Rattus norvegicus with 4 samples.

Results

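The hypothalamic transcripts described here are 9 genes of the thyroid axis and of prohormone processing: Trh, its processing enzymes Pcsk1, Pcsk2 and Cpe, its receptor Trhr, its degrading enzyme Trhde, the thyrotropin subunit genes Tshb and Cga, and the thyrotropin receptor gene Tshr. They were taken by name, as every probe whose accession matched one of these genes, which gave 12 probes for 9 of the 13440 genes with a matched probe. RNA came from the hypothalamus of 8 rats (Sprague Dawley, male), cut as a block between bregma -2.12 and -4.52 mm, and was hybridised to 4 Agilent arrays with a red and a green channel. All 8 rats drank 0.025% methimazole (MMI), which blocks thyroid hormone synthesis, over 22 days from 7 weeks of age. On day 21, rats received either triiodothyronine (T3, the active thyroid hormone; 25 µg per 100 g) or saline, and they were killed 24 hours later at 10 weeks. Each array paired 1 T3 rat with 1 saline rat. The T3 rat carried the Cy5 dye on arrays 1 and 3, and the dyes were exchanged on arrays 2 and 4. The comparison is thus between methimazole-treated rats with and without T3, and no untreated group was used here.

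Thyrotropin-releasing hormone is cut from a large precursor, pro-TRH, by the convertases PC1/3 (Pcsk1) and PC2 (Pcsk2). Carboxypeptidase E (Cpe) then trims the basic residues, and the tripeptide is amidated and released into the portal blood. At the pituitary it acts on Trhr to raise thyrotropin, a dimer of the beta subunit (Tshb) and the alpha subunit (Cga) that luteinizing and follicle-stimulating hormone share. The ectoenzyme encoded by Trhde, made by tanycytes among other cells, inactivates TRH outside the cell, and T3 is known to lower Trh transcription in neurons of the paraventricular nucleus and Tshb transcription in thyrotrophs. Cga and Tshb are also made by the pars tuberalis, a thin sheet of pituitary tissue that lies against the base of the hypothalamus and can stay attached to a tissue block.

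Promoters of the 3 hormone genes are shown because T3 is known to act on them through nuclear receptors whose half-sites read AGGTCA or a close variant. RefSeq promoter entries (build GRCr8, 250 bases before to 50 after the start of the gene) were found for 6 of the 9 genes, Trh, Tshb, Cga, Pcsk2, Cpe and Trhde. The windows of Trh (chr4:126301713-126302012, minus strand), Tshb (chr2:192918005-192918304, minus strand) and Cga (chr5:54283090-54283389, plus strand) are printed 5′ to 3′ along the gene, and capitals mark matches on either strand to the half-site AGGTCA, to its variant reading GGGTCA, and to the core promoter motif TATAAA.
Trh: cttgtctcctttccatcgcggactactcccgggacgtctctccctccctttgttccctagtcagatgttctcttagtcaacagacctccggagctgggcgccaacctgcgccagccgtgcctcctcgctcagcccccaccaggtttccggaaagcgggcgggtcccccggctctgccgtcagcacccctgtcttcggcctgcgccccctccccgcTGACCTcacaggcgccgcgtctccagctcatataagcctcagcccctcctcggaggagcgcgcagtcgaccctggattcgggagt
Tshb: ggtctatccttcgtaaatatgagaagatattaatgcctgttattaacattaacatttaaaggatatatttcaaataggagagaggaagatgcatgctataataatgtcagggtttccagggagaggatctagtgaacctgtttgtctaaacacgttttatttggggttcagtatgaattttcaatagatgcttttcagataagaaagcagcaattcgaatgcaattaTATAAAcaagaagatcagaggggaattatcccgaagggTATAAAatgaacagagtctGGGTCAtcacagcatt
Cga: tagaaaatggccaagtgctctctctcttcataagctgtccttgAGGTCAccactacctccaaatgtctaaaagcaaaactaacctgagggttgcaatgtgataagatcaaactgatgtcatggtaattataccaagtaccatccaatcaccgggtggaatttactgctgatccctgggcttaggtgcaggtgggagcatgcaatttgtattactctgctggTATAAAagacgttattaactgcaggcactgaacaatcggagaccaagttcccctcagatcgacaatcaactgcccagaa

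The Trh window held AGGTCA once, on the opposite strand (printed as its reverse complement) from -35 to -30 relative to the start. The Cga window held it once, from -207 to -202, and the Tshb window held GGGTCA once, from 35 to 40. TATAAA was found in the Tshb window at -23 and at 16 and in the Cga window at -29. Of 33469 promoter windows of the same length, 16.2% held AGGTCA, 13.8% held GGGTCA and 14.2% held TATAAA on either strand. These letters are common, and a match describes the sequence alone.

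No transcript of the 9 genes passed the test for a difference after T3. Of the 12 probes, 10 were well above background in the T3 or the saline channel on at least 3 of 4 arrays and were tested, covering 8 genes, and none of the 12 had a saturated spot. Over the whole array, 23 of 23141 tested probes passed at a limma adjusted p of 0.05 (0.0994%), 22 of them higher after T3 and 1 lower. Among the 10 tested probes 0 passed, and 2 (Tshb and the brighter Trhde probe) had an unadjusted limma p under 0.05, where 8.12% of all tested probes did. Tshb entered the test through the saline channel alone, so its place in these counts was not independent of the direction of its ratio. By mean log2 ratio of T3 over saline, 5 of the 8 tested genes were lower and 3 higher, with a median of -0.11, against a median of 0.0043 over the 9291 genes tested. A single sign on all 4 arrays was seen for 1 probe on the higher side (Trhde) and 1 on the lower side (Cpe), where 8.11% and 8.07% of the 22634 tested probes with a value on all 4 arrays were of those kinds. For all 12 probes, the levels of the 4 T3 rats overlapped those of the 4 saline rats, and non-overlapping levels were seen for 1.59% of the same 22634 probes.

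**Figure D1:**
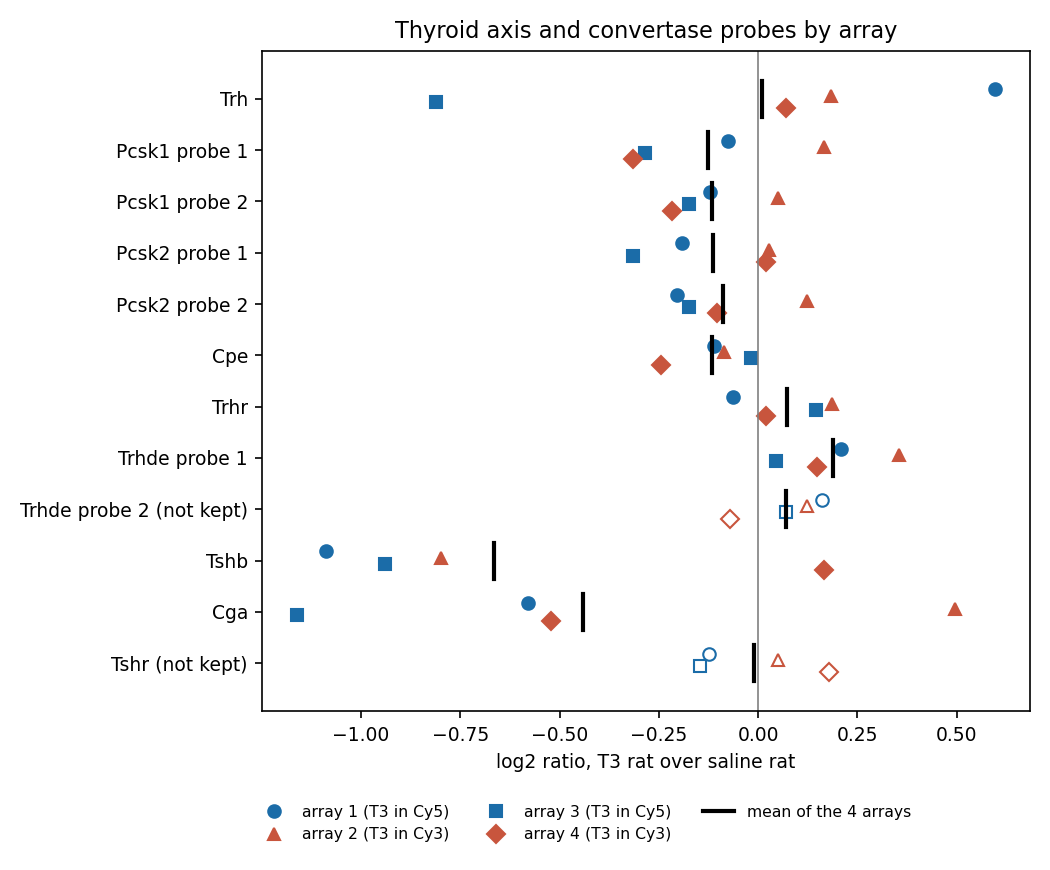
Log2 ratio of the T3 rat over the saline rat (horizontal axis) for the 12 probes, with 1 symbol per array, colours for the dye that carried T3, and a black bar for the mean of the 4 arrays; open symbols mark the 2 probes that were not tested. Trh spread from -0.81 to 0.60 around a mean near 0, Tshb lay below 0 on arrays 1 to 3, and the convertase and Cpe ratios lay between -0.32 and 0.17.

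Of the 10 hypothalamic nucleus markers on the array, which include the lateral hypothalamic peptides Hcrt and Pmch, 9 were well above background in both channels on all 4 arrays. Markers of the thalamus, which borders the block, differed by array: the summed normalised intensity of the 5 measured was 4151.5 and 3036.9 in the T3 and the saline rat of array 2, and 14955.8 to 40585.9 in the other 6 rats. Levels below are log2 normalised intensities of single probes. They can be compared between rats but not between genes, and 2 rats of an array share the spot, so a difference between arrays cannot be told apart from a difference between spots.

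Trh was present in every rat, and its mean did not differ between the groups beyond their spread. The block began at bregma -2.12 mm, and how much of the paraventricular nucleus lay in it was not measured. These levels are those of all Trh-expressing cells in the block and are not a measure of Trh in paraventricular neurons. In the T3 rats of arrays 1 to 4 its log2 level was 10.33, 10.80, 9.43 and 10.03, and in the saline rats it was 9.74, 10.62, 10.25 and 9.96. The 2 rats of array 2 had the highest levels, and the T3 rat of array 3 had the lowest of all 8. Group means were 10.15 ± 0.57 with T3 and 10.14 ± 0.38 with saline (SD, n = 4). The mean log2 ratio was 0.0096 ± 0.59 (SD, n = 4 arrays; 95% confidence interval -0.46 to 0.48, limma adjusted p = 1.00). The SD of the Trh ratio was larger than that of all but 1.72% of tested probes, where the median SD was 0.16.

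The array that moved the Trh mean most was array 3, at a log2 ratio of -0.81, without which the mean was 0.28 (limma adjusted p = 0.85). Of the magnocellular neuron markers, which mark the paraventricular and supraoptic nuclei, Oxt stood apart in the same T3 rat. The log2 level of Oxt, the oxytocin precursor, was 9.64 there and 11.13 to 13.41 in the other 7 rats. Avp and Pdyn, both at 12.98, were close to array 4 rats (Avp 12.99 with T3, Pdyn 13.00 with saline). Gal (14.05) was above the saline rats of arrays 1 and 4 (13.87 and 13.78). Over the 4 markers (Avp, Oxt, Pdyn and Gal, all measured), the summed normalised intensity was 33913 in the T3 rat of array 3 and 93062 in its saline partner. Across groups the sum ranged from 33913 to 123517 with T3 and from 38490 to 123769 with saline, and the 2 rats of array 2, which had the highest Trh levels, had the highest sums. Both rats of array 4 also had low sums (38848 with T3 and 38490 with saline), at Trh levels of 10.03 and 9.96. The summed intensity of 9 choroid plexus markers was 17415 in the T3 rat of array 3 and 2739 to 4153 in the other 7 rats. That sum came mostly from Ttr and Sostdc1, with log2 ratios of 3.53 and 2.70 on this array, while Calml4 was at -0.29 and Kl was not above background in any rat. The part of these tissue differences in the Trh ratios was not tested. In bulk tissue, fewer Trh neurons and less Trh RNA per neuron cannot be told apart.

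Genes of Trh neurons and their neighbours were examined next. Sim1, which specifies paraventricular neurons, had log2 ratios of -0.06, 0.15, -0.19 and 0.05 on arrays 1 to 4. Crh, the corticotropin-releasing hormone of neighbouring paraventricular neurons, had 0.57, -0.16, 0.28 and -0.37. On array 3 it lay above 0 where Trh lay below. The Crh sign followed the dye, above 0 with T3 in Cy5 (arrays 1 and 3) and below 0 with the dyes exchanged. Of 15 genes listed as regulators and neighbours of Trh neurons, 14 were tested, 6 had a higher and 8 a lower mean, and 0 passed in either direction (limma, 2 at an unadjusted p under 0.05). Their median log2 ratio was -0.023. Those with the smallest p were Cartpt, a peptide that Trh neurons also make (log2 ratio -0.23 ± 0.17, limma adjusted p = 0.54), Creb1, a cAMP-responsive activator (0.21 ± 0.16, limma adjusted p = 0.57), and Pou3f2, a factor of neuroendocrine development (0.19 ± 0.23, limma adjusted p = 0.69).

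Among 7770 genes well above background in both channels on all arrays, those with log2 ratios closest to those of Trh included Cyp4v3 (root-mean-square difference 0.15) and Dnajb6 (0.16), where the median gene was at 0.54. Both lay below 0 on array 3 (-0.92 and -0.63) and above 0 on array 1 (0.37 and 0.69). Likeness over 4 arrays describes the ratios alone.

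Both convertases and Cpe had lower means with T3, and none passed the test. The markers of hypothalamic nuclei also had lower means, 10 of 10 of those tested, where 48.1% of all genes tested were lower. Their median log2 ratio was -0.092 (by array -0.08, -0.09, -0.23 and 0.04), 0 passed (limma, 2 at an unadjusted p under 0.05), and the part of this in the member ratios was not tested. Pcsk1 was measured by 2 probes. The brighter had a log2 level of 8.50, 9.25, 8.76 and 8.57 in the T3 rats and 8.58, 9.08, 9.04 and 8.89 in the saline rats. It was lower with T3 on arrays 1, 3 and 4 and higher on array 2, with a mean log2 ratio of -0.13 ± 0.22 (95% interval -0.35 to 0.10, limma adjusted p = 0.84). The dimmer probe gave -0.12, 0.05, -0.17 and -0.22 on arrays 1 to 4, the same sign as the brighter probe on each.

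Pcsk2, the convertase that acts later in the granule, also had 2 probes. Levels of the brighter one were 10.63, 10.50, 10.42 and 11.05 with T3 and 10.82, 10.48, 10.74 and 11.03 with saline. With the T3 rat in Cy5 (arrays 1 and 3) the log2 ratios were -0.19 and -0.31, against 0.03 and 0.02 with the dyes exchanged, for a mean of -0.11 ± 0.17 (95% interval -0.31 to 0.08, limma adjusted p = 0.84). The dye coefficient of this probe was -0.14 (limma unadjusted p = 0.055, adjusted p = 0.30). Of all probes 0 passed for the dye, although 17% had an unadjusted p under 0.05, and 0 of the 10 tested here did. The dimmer Pcsk2 probe gave -0.20, 0.12, -0.17 and -0.10, differing in sign from the brighter one on array 4.

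Cpe had the smallest SD over arrays of the 10 tested probes. Its level was 15.72, 15.39, 15.74 and 15.58 in T3 rats and 15.83, 15.48, 15.76 and 15.83 in saline rats. It was lower with T3 on all 4 arrays, with log2 ratios of -0.11, -0.09, -0.02 and -0.25 and a mean of -0.12 ± 0.10 (95% interval -0.28 to 0.05, limma adjusted p = 0.78).

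Other enzymes that cut or modify propeptides were described from a list of 19, of which 16 were tested. A higher mean was seen for 5 and a lower mean for 11, 0 passed in either direction (limma, 2 at an unadjusted p under 0.05), and the median log2 ratio was -0.037. Partners of the processing steps had means near 0: Pcsk1n, the PC1/3 inhibitor proSAAS, at -0.04, Scg5, the PC2 chaperone 7B2, at -0.01, Pam, which amidates TRH, at -0.03, and Qpct, which forms its pyroglutamate end, at -0.04. The highest 2 of the list lay apart from the rest. Ctsl, cathepsin L, a protease of lysosomes and of some secretory granules, had log2 ratios of 0.59, 0.30, 0.51 and 0.79 on arrays 1 to 4 (mean 0.55 ± 0.20, limma adjusted p = 0.10). Cpz, a carboxypeptidase of the extracellular matrix, had 0.77, 0.09, 0.72 and 1.17 (mean 0.69 ± 0.45, limma adjusted p = 0.23). Cpz was lowest on array 2, and without that array its mean was 0.89 with a limma adjusted p of 0.037, the sole listed gene that passed in any alternative. Pcsk7, a convertase of the constitutive pathway, was at 0.15 ± 0.02 (limma adjusted p = 0.63).

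Proteins of the secretory granule were a list of 13, with 12 tested. Means were higher for 7 and lower for 5, 0 passed (limma, 0 at an unadjusted p under 0.05), and the median log2 ratio was 0.049. The smallest p values belonged to Cadps, which primes granules for release (0.12 ± 0.07, limma adjusted p = 0.74), the granin Chgb (0.20 ± 0.34, limma adjusted p = 0.78) and the granule peptide Vgf (-0.14 ± 0.21, limma adjusted p = 0.79).

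Trhde and the receptor gene Trhr had higher means with T3 that did not pass the test. The brighter Trhde probe had log2 levels of 8.19, 8.75, 8.15 and 8.41 in the T3 rats and 7.98, 8.39, 8.10 and 8.26 in the saline rats. It was higher with T3 on all 4 arrays, by 0.21, 0.36, 0.05 and 0.15, and the 2 groups overlapped. The mean log2 ratio was 0.19 ± 0.13 (95% interval 0.0091 to 0.37; limma unadjusted p = 0.042, adjusted p = 0.58), or 1.14-fold. The other Trhde probe was not well above background in any rat, so its ratios, from -0.07 to 0.16, carry no test.

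Tanycytes, a source of Trhde, were described by 10 markers, of which 8 were on the array and 5 were tested. Among these 3 had a higher and 2 a lower mean, and 0 passed (limma). An unadjusted limma p under 0.05 was seen for 3, where 9.27% of all genes tested had one. These 3 differed in direction, with mean log2 ratios of 0.53 (Adm), 0.37 (Nes) and -0.33 (Vim). The list's log2 median by array was 0.60, 0.08, -0.06 and 0.11. Over 7 of the tanycyte markers, the summed intensity ranged from 32946 to 48977 with T3 and from 28902 to 48080 with saline. That sum came mostly from Crym, Slco1c1 and Vim. Rax was above background in 2 T3 and 2 saline rats and Dio2 in 1 of each, and both added little to the sum. The part of tanycyte content in the Trhde ratio was not tested. Other peptidases that degrade neuropeptides had higher means for 10 of 11 tested genes of a list of 13, where 51.9% of all genes tested were higher, with a median log2 ratio of 0.084 and 0 past the threshold (limma, 0 at an unadjusted p under 0.05). Prep, prolyl endopeptidase, which can cleave TRH, was at 0.20 ± 0.20 (limma adjusted p = 0.64), the aminopeptidase Anpep at 0.15 ± 0.04 (limma adjusted p = 0.62) and Npepps at 0.14 ± 0.14 (limma adjusted p = 0.73).

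Trhr, the Gq-coupled TRH receptor, was well above background in all 8 rats. Levels were 7.42, 7.76, 7.36 and 7.69 with T3 and 7.49, 7.58, 7.21 and 7.67 with saline. The mean log2 ratio was 0.07 ± 0.12 (95% interval -0.10 to 0.25, limma adjusted p = 0.90), and the groups overlapped. Of 18 genes of Gq and Gs signalling, through which Trhr and the thyrotropin receptor act, 15 were tested, 8 higher and 7 lower, with a median of 0.038 and 0 past the threshold (limma, 1 at an unadjusted p under 0.05). Plcb1, a phospholipase C of the Gq pathway, was higher on all 4 arrays (0.28, 0.37, 0.31 and 0.11; mean 0.27 ± 0.11, limma adjusted p = 0.34). Plcb4, a related phospholipase, was at 0.23 ± 0.19 over the 3 arrays with a usable spot (limma adjusted p = 0.65), and the arrestin Arrb2 at 0.17 ± 0.13 (limma adjusted p = 0.65). The Tshr probe was not well above background in any of the 8 rats, and no fold is given.

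**Figure D2:**
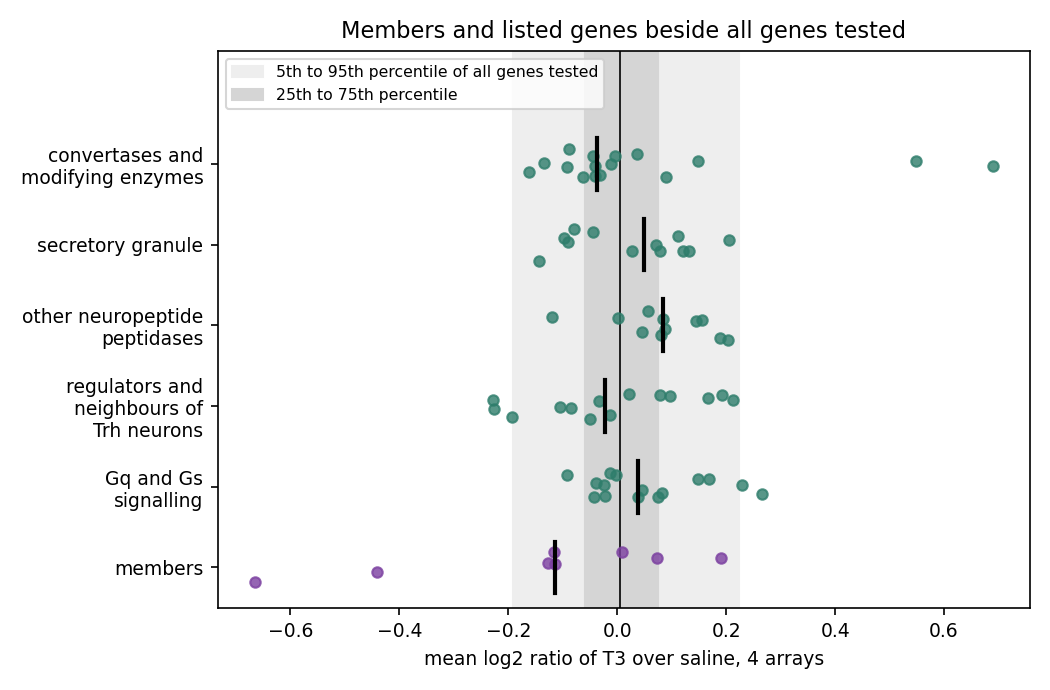
Mean log2 ratio of T3 over saline (horizontal axis) for each tested gene of the 5 lists and for the 8 tested members, with black bars for list medians and grey bands for the percentiles of the 9291 genes tested. Ctsl at 0.55 and Cpz at 0.69 are the rightmost, and Tshb at -0.67 and Cga at -0.44 are the leftmost.

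Tshb was the member with the lowest mean ratio, and it was lower in the T3 rat on arrays 1 and 2, where both rats were above background, and on array 3, where the saline rat alone was. The log2 level was 6.61, 8.22, 6.26 and 6.53 in the T3 rats of arrays 1 to 4 and 7.70, 9.02, 7.20 and 6.36 in the saline rats. It was well above background in 5 rats: the saline rats of arrays 1 to 3 and the T3 rats of arrays 1 and 2. Log2 ratios were -1.09, -0.80, -0.94 and 0.17, with a mean of -0.67 ± 0.57 (95% interval -1.12 to -0.21; limma unadjusted p = 0.0098, adjusted p = 0.36). On array 4 neither rat gave a signal well above background, so the ratio of 0.17 compares signals near background. Without that array the mean was -0.94 (limma adjusted p = 0.097). The probe entered the test through the saline channel alone, so its inclusion was not independent of the direction of the ratio.

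The size of the Tshb ratio depended on how background was treated, since its spots were dim. On array 3, the brightness was 139.5 over a background of 99.5 in the T3 channel and 130 over 54 in the saline channel. Agilent's processed signals gave log2 ratios of -2.12, -1.12, -3.23 and 1.41 on arrays 1 to 4, with a mean of -1.26 (limma adjusted p = 0.85), whereas leaving the background in gave -1.02, -0.74, -0.90 and 0.20. The sign on each array was the same in all 4 treatments tried.

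**Figure D3:**
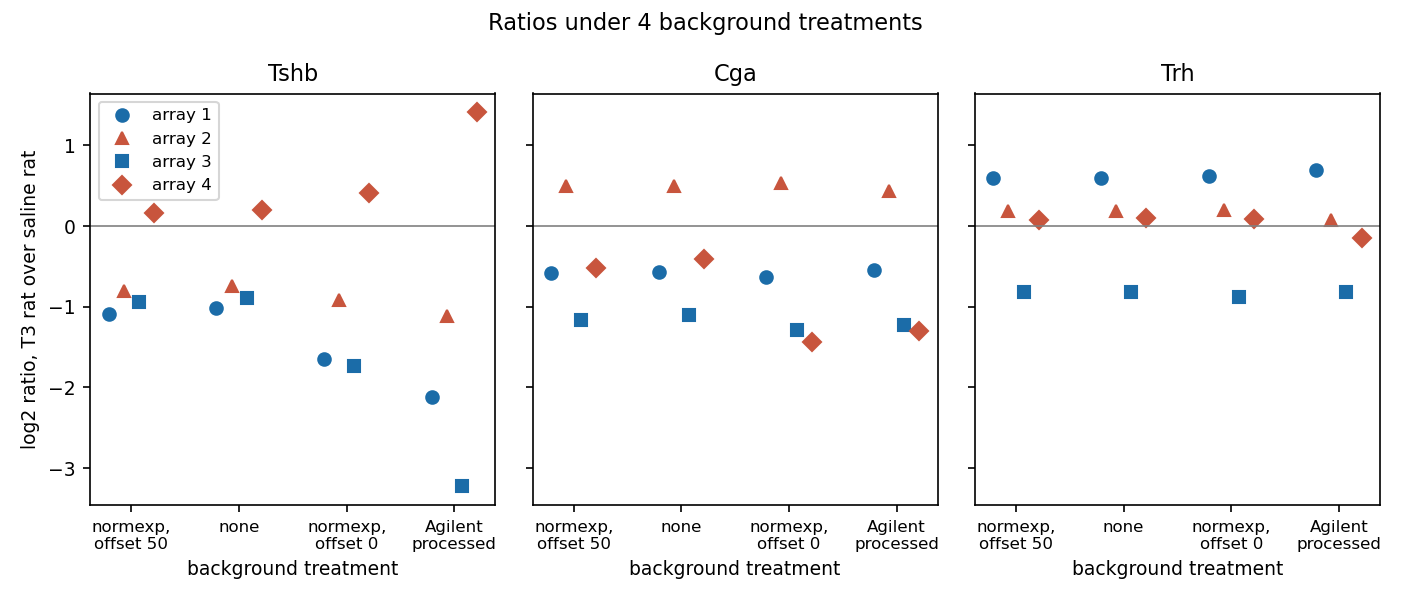
Log2 ratio of the T3 rat over the saline rat (vertical axis) for Tshb, Cga and Trh on each array under 4 background treatments (horizontal axis). Tshb ratios on array 3 range from -0.90 to -3.23 across treatments, the Cga ratio of array 4 from -0.41 to -1.43, and the Trh ratio of array 4 turns from 0.07 to -0.15 with Agilent's processed signals.

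Cga, the alpha subunit, was lower in the T3 rat on arrays 1 and 3, higher on array 2 and not reliably measured on array 4. Its log2 level was 9.08, 10.48, 8.69 and 6.33 in the T3 rats and 9.66, 9.99, 9.85 and 6.86 in the saline rats. It was well above background in the 6 rats of arrays 1 to 3 and in neither rat of array 4. The log2 ratio was -0.58, 0.50, -1.16 and -0.52, with a mean of -0.44 ± 0.69 (95% interval -0.98 to 0.10, limma adjusted p = 0.70). On array 4 the ratio compares signals near background, at 69.5 over 51 with T3 and 177 over 105.5 with saline. Without that array the mean was -0.41 (limma adjusted p = 0.89). With array 4 kept, the mean was -0.75 without array 2 (limma adjusted p = 0.10) and -0.20 without array 3 (limma adjusted p = 0.96). The dye coefficient of Cga was -0.43 (limma unadjusted p = 0.057, adjusted p = 0.31), against -0.35 for Tshb (limma unadjusted p = 0.065, adjusted p = 0.32).

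Pars tuberalis markers were dim. Nmu, neuromedin U, which the rat pars tuberalis makes, was the 1 of 3 pars tuberalis markers that could be tested. Like Tshb, it entered the test through the saline channel alone, so its inclusion was not independent of direction. Its log2 ratios were -0.69, 0.84, -0.92 and 0.01, in the order of the Cga ratios on arrays 1 to 3, and it was not above background in the T3 rat of array 3 or in either rat of array 4. The other 2 had log2 ratios of -0.45, -0.04, -0.23 and 0.11 (Mtnr1a) and 0.32, 0.16, 0.07 and -0.11 (Eya3), above background in 3 and 4 of the 8 rats. Over all 3 markers, the summed intensity ranged from 264 to 692 with T3 and from 268 to 504 with saline, lowest in both groups on array 4 and highest on array 2. The part of pars tuberalis content in the Tshb and Cga ratios was not tested.

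On array 2 the subunits differed in sign. The Cga ratio was 0.50 and the Tshb ratio -0.80 on the log2 scale, so the Tshb ratio minus the Cga ratio was -1.30. This difference was -0.51 on array 1 and 0.22 on array 3. With Agilent's processed signals it was -1.58, -1.55 and -2.00 on arrays 1 to 3. With no background offset it was -1.02, -1.45 and -0.45. The T3 rat of array 3 had no Tshb signal above background, and the array 3 difference changed sign with the background treatment, and those on arrays 1 and 2 did not. Blood markers differed within array 2, with a summed intensity of 5364.7 in the T3 rat and 95323.5 in the saline rat over the 3 measured. They were higher in the T3 rat on array 1 (57848.6 against 16076) and array 4 (63815.9 against 29477.7), and close on array 3 (22884.9 against 21787.7). The part of blood in the member ratios was not tested. The comparison of subunits was chosen after the values were seen and has no test.

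Anterior lobe hormones were high in 1 rat. Prl, prolactin, was well above background in a single rat, the T3 rat of array 1, at a log2 level of 11.33 against 6.05 to 6.65 in the other 7. Gh1, growth hormone, was highest in the same rat (9.08, against 6.46 to 8.24), as was Lhb, the luteinizing hormone beta subunit (10.74, against 8.34 to 9.28). In that rat Tshb was lower than in its saline partner (6.61 against 7.70), and so was Cga (9.08 against 9.66). Of 13 anterior pituitary markers 10 were on the array, 4 were tested and 0 passed (limma, 0 at an unadjusted p under 0.05), and Ghrhr, the growth hormone-releasing hormone receptor gene, was not above background in any rat. Their summed intensity was 26501 to 47280 with T3 and 21960 to 54865 with saline, a sum that includes Pomc, which hypothalamic neurons also make. The part of anterior lobe tissue in the member ratios was not tested.

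**Figure D4:**
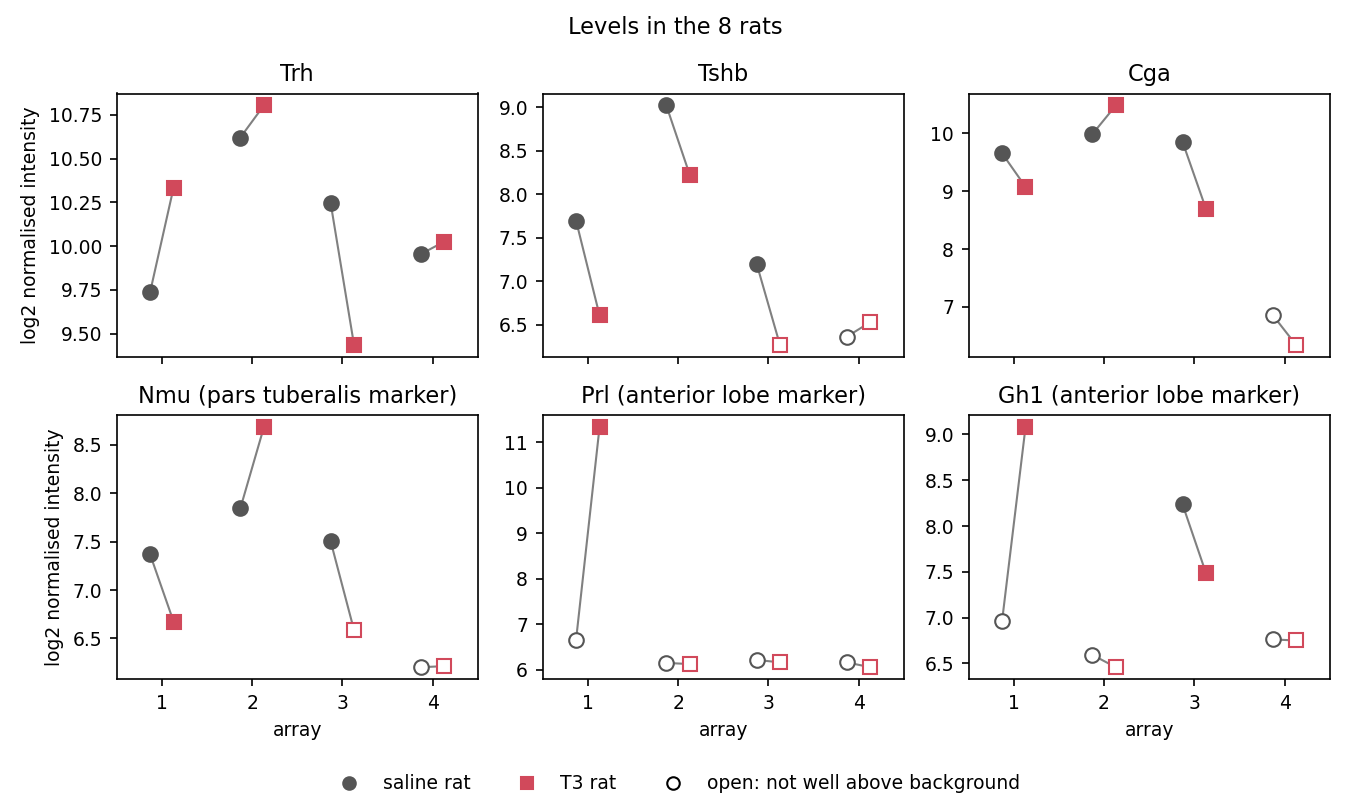
Log2 normalised intensity (vertical axis) of Trh, Tshb, Cga, Nmu, Prl and Gh1 in each rat by array (horizontal axis), with lines joining the saline rat (circle) and the T3 rat (square) of an array and open symbols where the spot was not well above background. Tshb is lower in the T3 rat on arrays 1 to 3, Cga and Nmu are higher in the T3 rat on array 2, and Prl stands out in the T3 rat of array 1 at 11.33.

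By the same likeness measure as for Trh, the genes closest to Tshb were Isg15 (0.26), A2m (0.26) and Firrm (0.31), where the median gene was at 0.85. Those closest to Cga included Mfhas1 (0.33) and Cspg4 (0.35), where the median gene was at 0.77. These distances are larger than those of the genes nearest to Trh, and pars tuberalis genes such as Nmu, not above background on all arrays, were not among the candidates. The ratios matched include those of array 4, where neither Tshb nor Cga was above background in either rat. For Tshb they also include array 3, where the saline rat alone was. The likeness to Tshb and Cga thus rests partly on signals near background.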

How the data were processed

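The deposited scanner output gives spot and background brightness (medians) and processed signals as intensity, and per the file headers Agilent Feature Extraction 10.7.3.1 wrote it. The log10 ratio column the authors deposited entered no result. A deposited value table, read as log2 ratios of unknown scale and centring, came from limma 3.18.9 according to the submitters' processing notes. Columns of this table correlated with the same array's T3 over saline ratios at r of 0.36, 0.35, 0.16 and 0.23 over all probes, which are not independent, and columns 3 and 4 correlated with each other at -0.48. Its direction was read from these positive signs.

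Median brightness was corrected with normexp (offset 50) and loess in limma 3.58.1 under R 4.3.3, with control spots at weight 0 and outlier spots left out. Arrays with T3 in Cy3 were turned. Levels by rat followed Aquantile scaling. Accessions were matched without versions to RefSeq (assembly GRCr8), which named 16964 of 41012 probes, and a gene took its brightest tested probe. limma's moderated test was used (lmFit, eBayes, 2-sided, Benjamini-Hochberg over 23141 probes, 3 residual and 4.35 prior degrees of freedom). The method was tested on simulated data. Errors are SDs over 4 arrays, whose number limits the precision, and p-values measure the spread between 4 pairs of rats, all on 1 slide. Members, lists and rules were chosen with earlier results of these data known. Of each list, the 3 genes with the smallest p and any past the threshold were named, with all members, the 3 genes closest to each member whose SD was over 0.3, and a few chosen after their values were seen (Sim1, Crh, Pcsk1n, Scg5, Pam, Qpct, Oxt, Prl, Gh1, Lhb, Mtnr1a and Eya3). Some genes that these rules name are not reported here.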

Additional observations from a re-analysis of the deposited data

How the results depend on the processing

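No member probe passed in any alternative (0 of the tested probes each time). Over the whole array, limma called 23 probes, but 0 with Agilent's processed signals (1597 at an unadjusted p under 0.05), with median centring (131) or with offset 0 (1859, chosen after seeing the data), 10 with the authors' processed values, 15 with a dye term, 38 with eBayes trend and robust, 67 with no filter and 90 at a threshold of 0.1. Leaving out single arrays gave 0 to 70 calls, with 0 without replicates 1, 3 or 4 (1401, 1381 and 1578 at an unadjusted p under 0.05). Of the 68 listed pathway genes 0 to 1 passed without single arrays, Cpz without replicate 2 (called) and none otherwise. With median centring 4 of the 10 member probes passed for a dye effect, where 0 did otherwise; that setting removes no dye trend with brightness. The Trh mean turned to -0.048 with processed signals, -0.044 with median centring and -0.22 with the authors' values, and ranged from -0.19 to 0.28 without single arrays. The authors' values also turned Pcsk2 (0.12), Cpe (0.083), Trhr (-0.055) and Cga (0.25), and the cause was not tested. That table tracks the scanner ratios weakly, its column 4 about as well for array 1 (r 0.22) as for array 4 (0.23). Arrays 1 and 2 correlated best with their own columns. Array 3 correlated better with column 1 (0.20) than with its own (0.16), and array 4 better with column 2 (0.25) than with its own. The columns may thus be exchanged or come from other values. The table's direction was read from these weak correlations, so a turned sign from it carries little weight. Pcsk1, Trhde and Tshb kept their sign in every alternative that tested them, with Tshb from -1.26 to -0.31. Without single arrays, Pcsk1 ranged from -0.23 to -0.065, Pcsk2 from -0.16 to -0.048, Cpe from -0.15 to -0.072, Trhr from 0.035 to 0.12, Trhde from 0.13 to 0.24, Tshb from -0.94 to -0.52 and Cga from -0.75 to -0.20. Tshb and Cga had no value when a signal above background was asked for on all arrays in both channels. Low signal over background limits Tshb and Cga, and leaves no measured ratio for Tshr and 1 Trhde probe.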
